A study of Mus musculus with 20 samples.

Results

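Rab GTPases are small membrane-bound switches. In the GTP-bound state each Rab marks a particular membrane, such as the early endosome, the lysosome, the Golgi or a secretory granule, and recruits effectors that move, tether or fuse vesicles. Exchange factors load GTP, GTPase activating proteins (many with a TBC domain) return the switch to the GDP-bound state, and escort and prenylation factors attach the protein to membranes. In dendritic cells these routes carry internalised antigen, MHC molecules and Toll-like receptors, and in granulocytes and mast cells several Rabs serve regulated secretion.

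The members were all genes whose symbol on the mouse Affymetrix platform used here is Rab followed by a number and at most 1 letter and digit. That rule gave 59 of the 18193 genes measured, each represented by its brightest probe set by mean value on all 20 arrays. All cells came from C57BL/6 mice. The groups, of 2 arrays each, were multipotent progenitors (MPP) and common dendritic cell progenitors (CDP), both amplified in culture from bone marrow, the conventional (cDC) and plasmacytoid (pDC) dendritic cells obtained from amplified progenitors, CDP isolated from mice without culture (in vivo CDP), and cultured CDP before and 4, 8, 12 and 24 h after addition of TGF-β1. The dose of TGF-β1 and the number of mice or cultures behind an array were not given in the sources used here, so the tests reflect array-to-array spread only, which may be technical. No untreated culture at 4 to 24 h was analysed here, so TGF-β1 and time in culture cannot be told apart.

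The values are log2 signals. The 10 arrays of MPP, CDP, in vivo CDP, cDC and pDC share 1 scale, with medians of 2.46 to 2.52 and a common lowest value of 2.25, and 35 to 39 Rab members lay above 5 on each. The TGF-β1 arrays have another scale, with medians of 5.29 to 5.36, and 47 to 51 members lay above 5, so levels were compared only within each set. All 10 cDC markers measured were above 5 on both cDC arrays. So were all 7 pDC markers on both pDC arrays and all 6 MPP markers on both MPP arrays. That level does not by itself tell the groups apart, as all 6 CDP markers exceeded 5 on both arrays of every group. Kit, an MPP marker, read 11.31 and 10.89 in cDC against 9.73 and 9.68 in MPP. Between cDC and pDC, limma called all 7 pDC markers higher in pDC and 7 of 10 cDC markers higher in cDC. From MPP to CDP, 5 of 6 MPP markers were called lower and 1 higher. Within the TGF-β1 set, replicate 1 at 4, 12 and 24 h had low 5′ signal, with Gapdh 3′ minus 5′ probe set differences of 2.09, 2.61 and 2.78 against 0.01 to 0.1 on the other arrays. A gene was tested where it exceeded 5 on at least 2 arrays of the fit, and a difference was called where limma's adjusted p over all genes tested was under 0.05.

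Of the 59 members, 43 were tested over MPP, CDP, cDC and pDC. The other 16 stayed between 2.25 and 4.93 on these 8 arrays and are Rab13, Rab15, Rab17, Rab25, Rab26, Rab27b, Rab33a, Rab36, Rab37, Rab39b, Rab3b, Rab3c, Rab40b, Rab42, Rab4a and Rab9b. Several of these are known from epithelium or neurons. Rab37 passed the filter once the in vivo CDP arrays were included, and 51 members passed it on the TGF-β1 arrays. Over the 4 groups together, 27 of the 43 differed (moderated F-test), against 66.8% of all genes tested, so the share of Rab members that varied lay near that of genes in general.

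Between MPP and cultured CDP, the Rab genes that were called were all lower in CDP and include 3 of granules and lysosome-related organelles. Limma called 4 members lower and 0 higher, where the background over all genes tested was 3.52% lower and 3.99% higher (7.51% either way), and 2 members were higher and 5 lower at an unadjusted p under 0.05. The median difference was 0 both over the members and over all genes. Rab38, which with Rab32 directs cargo to melanosomes and other lysosome-related organelles, read 10.66 and 9.96 on the MPP arrays and 4.27 and 3.57 on the CDP arrays. The groups lay far apart, with both CDP values under 5. Rab38 was at least 39.8-fold lower in CDP, taking 5 as the limit (log2 difference -6.39, SE 0.32, adjusted p = 0.000109). Rab44, a large Rab with EF-hands known from mast cell and neutrophil granules, read 9.61 and 9.86 in MPP and 4.81 and 4.88 in CDP. It was at least 26.6-fold lower in CDP (log2 difference -4.89, SE 0.2, adjusted p = 7.78e-05).

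Rab3d, which resides on secretory granules, read 7.22 and 7.61 in MPP and 5.66 on both CDP arrays, a 3.37-fold decrease (log2 difference -1.75, SE 0.22, adjusted p = 0.00427). Rab34, a regulator of lysosome position and phagosome maturation, read 5.22 and 5.14 in MPP and 3.31 and 2.51 in CDP. Its MPP values barely exceeded 5, and with values under 5 raised to 5 the difference was -0.18 and the call was lost (adjusted p = 0.547). Without either MPP array fewer members were called, because Rab38, Rab44 and Rab34 exceed 5 only on the MPP arrays of this fit. They then fall under the filter. The share of all genes called was lower as well.

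Granulocyte and mast cell genes moved with these members. Of 10 granulocyte markers tested, 9 were lower in CDP than in MPP and 1 was higher. The latter was Mmp8, at 5.42 and 4.35 in MPP and 8.71 and 7.65 in CDP. The log2 of the summed linear signal of all 10 was 16.52 to 16.82 in MPP and 14.24 to 14.86 in CDP. Of 5 mast cell and basophil markers tested, out of 7 measured, 4 were lower, with summed signals of 12.23 to 12.3 in MPP and 7.12 to 7.52 in CDP. The mast cell protease gene Cpa3 read 9.98 and 9.74 in MPP and 2.36 and 2.25, at or near the lowest value, in CDP. The part of these cells in the Rab differences was not tested, and in bulk RNA fewer cells of a type and less RNA per cell cannot be told apart.

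**Figure D1:**
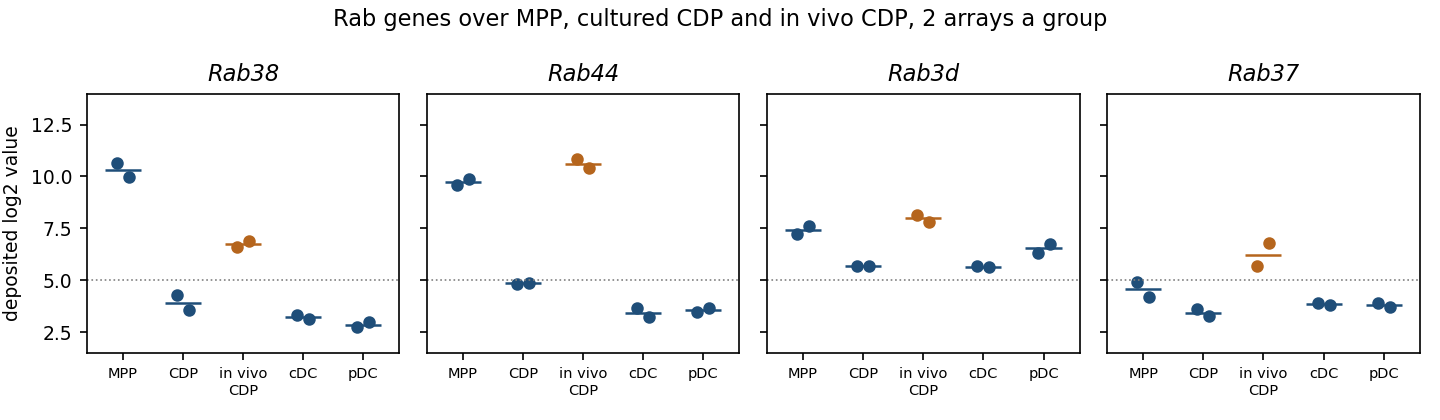
Deposited log2 values of Rab38, Rab44, Rab3d and Rab37 (vertical axes) in MPP, CDP, in vivo CDP, cDC and pDC (horizontal axes). Each point is 1 array, the bar is the mean of 2, the dotted line marks 5, and in vivo CDP, labelled with another kit, is in brown. Rab44 is near 10 in MPP and in vivo CDP and under 5 in cultured CDP, cDC and pDC.

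In vivo CDP were set against the same cultured CDP arrays. Rab44, Rab38, Rab37 and Rab3d had the largest increases in vivo. Of 44 members tested, 16 were higher and 5 lower in vivo, against 27.6% and 19.5% of all genes tested (47.1% either way), and the median difference was 0.22 over members and 0.1 over all genes. Rab44 read 10.82 and 10.42 in vivo, at least 49.2-fold above cultured CDP (log2 difference 5.78, SE 0.22, adjusted p = 2.43e-06). Rab38 read 6.59 and 6.88 in vivo, at least 3.33-fold above cultured CDP (adjusted p = 0.000251). No array of the in vivo group overlapped with the cultured group for either gene.

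Rab3d read 8.15 and 7.82 in vivo, 5.01-fold above cultured CDP (log2 difference 2.32, SE 0.22, adjusted p = 0.000142). Rab37, which serves regulated secretion, read 5.67 and 6.77 in vivo and 3.62 and 3.25 in culture, at least 2.33-fold higher (adjusted p = 0.000661). Rab37 was above 5 on the in vivo arrays only, so it could not be tested with either of them left out.

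Other members called higher in vivo span recycling endosomes (Rab11a, Rab11b and Rab35), the early endosome (Rab5c), late endosomes (Rab7 and Rab39), the Golgi and endoplasmic reticulum (Rab1b, Rab33b and Rab43), exocytosis (Rab8b) and lysosome-related organelles (Rab27a and Rab29). Of these, only Rab7, Rab11a, Rab27a, Rab39 and Rab43 were followed one by one through the alternatives. Rab5c, a Rab5 isoform of early endosome fusion, read 10.75 and 10.7 in vivo and 8.61 and 8.69 in culture. Rab27a, which docks lysosome-related organelles at the plasma membrane, read 11.24 and 11.11 in vivo and 9.96 and 10.28 in culture, but its other tested probe set differed by -0.33. With the mean of its probe sets the Rab27a difference was -0.03 (adjusted p = 0.927). The calls of Rab7 and Rab11a were lost without either in vivo array (adjusted p of 0.0708 and 0.0745 for Rab7, 0.0965 and 0.0773 for Rab11a) and without CDP replicate 2 (0.102 and 0.0823), and that of Rab11a also without CDP replicate 1 (0.0653). The call of Rab43 was lost without in vivo CDP replicate 2, at a difference of 0.93 (adjusted p = 0.0552), and with the mean of its probe sets (0.065). Rab7 with the mean of its probe sets was at 0.1 (adjusted p = 0.671). Rab39 reached 4.58 and 5.48 in vivo, and its call was lost with values under 5 raised to 5 (0.24, adjusted p = 0.296).

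Lower in vivo were Rab1a, which acts between endoplasmic reticulum and Golgi (11.52 and 11.81 against 13.08 and 12.95), Rab18 of lipid droplets and endoplasmic reticulum (9.12 and 9.19 against 10.39 and 10.23), Rab28, Rab14 and Rab30. Both Rab1a and Rab18 were separated from the cultured group on every array. Rab30 lay under 5 on all 4 arrays, so no fold is given. Its call (-1.11, adjusted p = 0.0444) was lost under 8 of 17 alternatives, among them no filter on low values (0.18), the mean of its probe sets (0.372), CDP replicate 1 left out (0.241) and either in vivo or either pDC array left out (0.0577 to 0.22). Rab14, whose call was not followed through the alternatives, has 6 other probe sets tested here. Their differences ran from -1.63 to 0.82, with 2 called lower and 1 called higher. The call of Rab28, a difference of -0.87, was lost without CDP replicate 1, at -0.61 (adjusted p = 0.124), and without either in vivo array (0.0825 and 0.0926). Without in vivo CDP replicate 2 fewer members were called, and the share of all genes called was lower as well.

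Kit, RNA amount (50 ng against 1 µg) and extraction differ between the in vivo and the cultured CDP arrays, so they cannot be told apart from the cells. Granulocyte markers also moved, with 7 of 10 higher and 1 lower in vivo and summed signals of 14.66 to 15.34 against 14.24 to 14.86. The summed signal of the mast cell and basophil markers was 7.46 to 7.58 in vivo and 7.12 to 7.52 in culture. Of 6 MPP markers 5 were higher in vivo, and of 6 monocyte and macrophage markers 3 were lower (sums of 12.2 on both in vivo arrays and 13.25 to 14.23 in culture). Gapdh 3′ minus 5′ probe set differences were 0.98 and 0.47 in vivo and -0.15 and 0.19 in cultured CDP. Those of beta-actin did not follow, at 1.39 and 1.09 in vivo and 1.23 and 2.11 in cultured CDP. The part of these cells and of RNA quality in the result was not tested.

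Rab39, Rab30, Rab43 and Rab7b had the largest increases in cDC over CDP. Of 43 members, 16 were higher and 4 lower in cDC than in CDP, against 18.7% and 29.3% of all genes tested (48% either way), and the median difference was 0.45 over members and -0.16 over all genes. With no filter on low values the members' median was 0.08. All role groups had members called higher: 3 of 6 tested in the late endosome, lysosome and phagosome group, 3 of 5 in the recycling group, 2 of 4 in the lysosome-related organelle group, 4 of 11 in the endoplasmic reticulum and Golgi group, 2 of 7 in the exocytosis and granule group, 1 of 6 in the early endosome group and 1 of 4 elsewhere. Granulocyte markers moved with this comparison, their sum being 14.24 to 14.86 in CDP, 8.03 to 8.06 in cDC and 7.83 to 8.08 in pDC, with 6 of 10 called lower in each subset. Beta-actin 3′ minus 5′ probe set differences were 1.23 and 2.11 in CDP, 0.69 and 0.84 in cDC and 0.84 and 0.94 in pDC. Those of Gapdh were -0.15 and 0.19 in CDP, -0.2 and -0.09 in cDC and -0.21 and -0.06 in pDC. The part of granulocytes and of RNA quality in the Rab differences was not tested.

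Rab39, which acts on late endosomes and phagosomes, read 3.22 and 3.2 in CDP, 8.81 and 8.79 in cDC and 7.39 and 7.25 in pDC. It was at least 13.9-fold higher in cDC than in CDP (log2 difference 5.59, SE 0.24, adjusted p = 2.56e-05). Rab7b, which carries cargo from late endosomes to the trans-Golgi network and acts on Toll-like receptor traffic, read 7.89 and 7.18 in CDP, 10.53 and 11.36 in cDC and 4.64 and 6.17 in pDC. All 3 groups were separated, with cDC above and pDC below CDP. The increase in cDC was 10.6-fold (log2 difference 3.41, SE 0.53, adjusted p = 0.00243).

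Rab43, a Golgi Rab known for a role in antigen cross-presentation by dendritic cells, read 6.49 and 6.59 in CDP, 10.04 and 10.47 in cDC and 6.88 and 7.42 in pDC. It was 13.1-fold higher in cDC than in CDP (log2 difference 3.71, SE 0.25, adjusted p = 0.000114). Rab30, another Golgi Rab, read 4.14 and 3.22 in CDP, 8.35 and 7.68 in cDC and 3.45 and 3.29 in pDC. Rab30 was above 5 in cDC alone among the 5 groups, at least 8.08-fold above CDP (log2 difference 4.34, SE 0.4, adjusted p = 0.000345), and for that reason was not tested with either cDC array left out.

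Rab6b, a Golgi Rab best known from neurons, read 4.33 and 6.09 in cDC and 2.25 and 2.26 in CDP. The cDC arrays lay on either side of 5, and with values under 5 raised to 5 the difference was 0.55 (adjusted p = 0.279). Its difference of 2.96 was 3.84 without cDC replicate 1 and 2.08 without cDC replicate 2. Smaller increases that held under every alternative tried were those of Rab8b (2.28-fold), Rab33b (2.09-fold) and the recycling endosome Rab11a, which read 9.72 and 9.69 in CDP and 10.57 and 10.82 in cDC. In pDC Rab11a read 10.3 and 10.06 and was not called against CDP (0.47, adjusted p = 0.0558 by limma). Its other probe set was called higher than in CDP in both subsets, by 0.94 in cDC and 1.05 in pDC. Rab7, the main Rab of late endosome to lysosome fusion, read 11.07 and 10.79 in CDP and 11.74 and 11.66 in cDC (log2 difference 0.78, adjusted p = 0.0108). Its call was lost without CDP replicate 2 (adjusted p = 0.0554) and without cDC replicate 1 (adjusted p = 0.0525). Rab5a, the main Rab of early endosomes, read 11.7 and 11.1 in CDP and 11.26 and 11.45 in cDC and was not called.

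Rab32, the close relative of Rab38, was 3.21-fold higher in cDC (10.86 and 11.29 against 9.7 and 9.08), with the call lost without CDP replicate 2 (1.38, adjusted p = 0.105) and without cDC replicate 2 (1.47, adjusted p = 0.0998). Rab29, which recruits the kinase Lrrk2 to membranes, read 8.81 and 8.4 in cDC and 7.24 and 7.05 in CDP, and lost its call without any of the 4 arrays (adjusted p of 0.0506 to 0.103). Rab24, linked to autophagy, was 2.01-fold higher (adjusted p = 0.046), and its call was lost with any of 7 of the 8 arrays left out, CDP replicate 1 being the exception (adjusted p of 0.0618 to 0.192). The remaining increases were those of Rab10, Rab4b, Rab5c and Rab11b, of 1.42- to 1.7-fold. The calls of these members were not followed one by one through the alternatives. The other tested probe sets of Rab11b (0.48 and 0.29) were not called, and of those of Rab10 (0.07 and 0.86) only 1 was called. The members lower in cDC were Rab1a (12.24 on both cDC arrays, a call lost with the mean of its probe sets at an adjusted p of 0.058), Rab28, Rab23 and Rab44, the last with all its values in both groups under 5. The decreases of Rab28 and Rab23 were lost without either cDC array (adjusted p of 0.0517 to 0.0782), and without CDP replicate 1 for Rab28 (-0.81, adjusted p = 0.0767) or CDP replicate 2 for Rab23 (-0.88, adjusted p = 0.0637). Without cDC replicate 1, cDC replicate 2 or CDP replicate 2 fewer members were called, and the share of all genes called was lower as well.

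In pDC the largest increase was that of Rab6b and the largest decrease that of Rab31. Of 43 members, 11 were higher and 10 lower than in CDP, against 21.7% and 31.6% of all genes tested (53.2% either way), with a median difference of 0.14 over members and -0.14 over all genes. Rab6b read 8.43 and 9.16 in pDC, at least 13.9-fold above CDP, where both arrays were at or just above the lowest value (log2 difference 6.54, SE 0.53, adjusted p = 0.000141). Rab33b, which acts at the Golgi and in autophagosome formation, read 12.21 and 12.02 in pDC, 9.13 and 9.44 in cDC and 8.32 and 8.12 in CDP. Both genes were highest in pDC on every array. Rab33b was 14.9-fold above CDP (log2 difference 3.9, SE 0.19, adjusted p = 2.28e-05).

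The largest decreases in pDC were those of Rab31, Rab32 and Rab7b. Rab31, which acts between trans-Golgi network and endosomes, read 8.37 and 8.61 in CDP, 7.42 and 7.65 in cDC and 2.74 and 4.25 in pDC. It was at least 11.2-fold lower in pDC than in CDP (log2 difference -4.99, SE 0.45, adjusted p = 0.000201). Rab32 read 5.45 and 6.75 in pDC, 9.81-fold under CDP (log2 difference -3.29, SE 0.45, adjusted p = 0.00105). Rab7b was 4.38-fold lower (log2 difference -2.13, SE 0.53, adjusted p = 0.0131). The Rab7b decrease lost its call without CDP replicate 1 (-1.78, adjusted p = 0.0691), without pDC replicate 1 (-1.37, adjusted p = 0.0507) and with no filter on low values. All 3 genes read lower on pDC replicate 1 than on pDC replicate 2. Without pDC replicate 1 the Rab31 and Rab32 differences were -4.23 and -2.64, and without pDC replicate 2 they were -5.74 and -3.94, called in each case. Of 6 monocyte and macrophage markers, Lyz2 (7.13 and 11.94) and Adgre1 (4.32 and 8.86) were likewise lower on pDC replicate 1, as were Csf1r (7.63 and 10.48) of the CDP markers and Pf4 (4.21 and 8.65) of the megakaryocyte markers. The part of such cells in the Rab values was not tested.

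Rab39 was at least 4.99-fold higher in pDC than in CDP (log2 difference 4.11, SE 0.24, adjusted p = 4.11e-05). Rab29 (3.24-fold) and Rab24 (2.96-fold) also rose in pDC, Rab29 losing its call without CDP replicate 2 (adjusted p = 0.0534). Rab29 read 9.48 and 8.19 in pDC, and its difference of 1.7 was 1.05 without pDC replicate 1 and 2.34 without pDC replicate 2. With no filter on low values both calls were lost. Smaller increases, of 1.41- to 1.83-fold, were called for Rab3d, Rab2b, Rab21, Rab10, Rab22a and Rab11b. Of these, Rab10 lost its call with the mean of its probe sets (adjusted p = 0.078). Rab11b was not followed through the alternatives, and its other tested probe sets (0.66 and 0.33) were not called. Rab3d, Rab2b, Rab21 and Rab22a lost it without at least 1 array of CDP or pDC, at adjusted p of 0.0523 to 0.185, and Rab2b also without either cDC array (0.0579 and 0.0581).

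Rab1a, the secretory pathway Rab, was 1.82-fold lower in pDC (12.28 and 12.02 against 13.08 and 12.95). Rab23, which acts in Hedgehog signalling, read 4.31 and 3.7 in pDC and 5.24 and 6.06 in CDP, at least 1.57-fold lower, a call lost with values under 5 raised to 5 (-0.65, adjusted p = 0.0743). Rab44 and Rab38 were called lower with all values in both groups under 5, and both calls were lost with values under 5 raised to 5. The decreases of Rab28, Rab40c and Rab6a, of 1.45- to 1.71-fold, were lost without pDC replicate 2 (adjusted p of 0.0851 to 0.174), as was that of Rab38 (0.0606). Each of these 4 was lost without at least 1 CDP array as well (0.0646 to 0.213), Rab28, Rab6a and Rab38 without pDC replicate 1 (0.0973 to 0.178), and Rab28 and Rab6a without either cDC array (0.0615 to 0.0678). A block for the replicate number ended the Rab6a call (adjusted p = 0.0581), and so did quantile normalization (0.0917) and the mean of its probe sets (0.286). With no filter on low values 12 of 59 members were called in place of 21 of 43. The share of all genes called was then 20.7% in place of 53.2%. Without pDC replicate 2 the count of members and the share of all genes were also lower.

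RefSeq promoter entries (build GRCm38.p6) were found for 48 of the 59 members. They are shown because pDC lay above both CDP and cDC for the first 2 genes and below both for the others. Each line gives the 250 bases before the annotated start, 5′ to 3′ on the gene's strand, with every E-box (CANNTG, which reads the same on both strands) in capitals. E-boxes are bound by E proteins such as Tcf4, a factor known to be required for pDC.
Rab6b, chr9:103111824-103112073, plus strand: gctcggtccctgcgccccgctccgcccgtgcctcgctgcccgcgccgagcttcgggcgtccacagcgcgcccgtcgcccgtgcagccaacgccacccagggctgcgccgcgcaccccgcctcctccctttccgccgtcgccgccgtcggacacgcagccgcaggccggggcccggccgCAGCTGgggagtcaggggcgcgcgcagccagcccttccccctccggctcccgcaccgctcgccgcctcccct
Rab33b, chr3:51483716-51483965, plus strand: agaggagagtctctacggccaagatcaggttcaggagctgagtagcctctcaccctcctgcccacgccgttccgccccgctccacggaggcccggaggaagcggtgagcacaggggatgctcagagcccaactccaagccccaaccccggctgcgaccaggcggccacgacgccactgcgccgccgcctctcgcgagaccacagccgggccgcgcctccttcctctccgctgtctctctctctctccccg
Rab31, chr17:65772753-65773002, minus strand: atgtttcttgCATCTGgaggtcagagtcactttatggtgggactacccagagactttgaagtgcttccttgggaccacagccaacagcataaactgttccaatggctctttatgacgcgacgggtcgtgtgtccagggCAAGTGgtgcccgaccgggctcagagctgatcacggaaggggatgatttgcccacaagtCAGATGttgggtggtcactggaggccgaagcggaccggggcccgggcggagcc
Rab32, chr10:10558208-10558457, minus strand: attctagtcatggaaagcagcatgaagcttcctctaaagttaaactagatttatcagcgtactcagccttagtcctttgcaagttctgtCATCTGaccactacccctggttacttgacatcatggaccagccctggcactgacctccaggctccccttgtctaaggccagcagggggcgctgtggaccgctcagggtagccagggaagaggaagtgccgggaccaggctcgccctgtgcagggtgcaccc
The Rab6b window holds 1 E-box, that of Rab33b none, that of Rab31 3 and that of Rab32 1. At least 1 E-box was present in 66.2% of all 32851 promoter windows of this length, and at least 2 in 31.8%. GAGGAA, the core of the motif of the myeloid factor PU.1, was found 2 times, counting both strands and without overlap with an E-box, in the windows of Rab33b and of Rab32 and was not found in the other 2. It was present in 23.3% of all windows, and in 3.54% at least 2 times. The Rab33b and Rab32 genes, which share that count, lay at opposite ends of the pDC pattern. A match is a description of these letters and not a bound site.

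The direct comparison of the dendritic cell subsets called 9 members higher in cDC and 3 higher in pDC, against 12.8% and 12.7% of all genes tested (25.5% either way). Rab7b had the largest difference (46.6-fold, log2 difference 5.54, SE 0.53, adjusted p = 0.000474). Also higher in cDC were Rab30 (at least 8.08-fold), Rab43 (8.6-fold) and Rab39 (2.79-fold). Rab32 was 31.5-fold higher in cDC than in pDC (log2 difference 4.98, SE 0.45, adjusted p = 0.000384), and Rab31 at least 5.8-fold. Rab6b was 12-fold and Rab33b 7.13-fold higher in pDC. These 8 calls held under every alternative in which the gene passed the filter, while some sizes moved. The Rab7b difference was 4.78 without pDC replicate 1, 6.3 without pDC replicate 2 and 4.54 with the mean of its probe sets. The Rab32 difference was 4.33 without pDC replicate 1 and 5.63 without pDC replicate 2, and that of Rab31, 4.04, became 3.28 and 4.79. The Rab6b difference of -3.58 was -2.7 without cDC replicate 1, -4.46 without cDC replicate 2 and -2.68 with the mean of its probe sets.

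Rab8b (2.32-fold) and Rab8a (2.25-fold), Rabs of exocytosis, and Rab7 (1.55-fold) were also called higher in cDC, and Rab3d lower (1.83-fold). Rab8a read 10.06 and 9.18 in cDC and 8.46 and 8.43 in pDC. These 4 calls were lost with no filter on low values (adjusted p of 0.0561 to 0.211) and without cDC replicate 1 (0.0719 to 0.219). Each was also lost without at least 1 pDC array (0.0504 to 0.171), Rab7 and Rab3d without cDC replicate 2 (0.108 and 0.0993), and Rab8a and Rab7 without either MPP array (0.0601 to 0.0759). Without cDC replicate 1 fewer members were called, and the share of all genes called was lower as well. Rab20, a phagosome Rab, read 6.12 and 6.17 in cDC and 3.8 and 4.53 in pDC, but 6.16 and 3.17 on the CDP arrays, a gap of 2.98 between replicates. It was called in none of these comparisons, while without CDP replicate 1 or CDP replicate 2 the difference between cDC and pDC, 1.98, passed (adjusted p of 0.0141 and 0.0144). Without CDP replicate 1 its difference in cDC against CDP passed as well (2.97, adjusted p = 0.00564, in place of 1.48). Without CDP replicate 2, those in pDC (-2, adjusted p = 0.0191) and in vivo CDP (-3.36, adjusted p = 0.00241) against CDP passed, in place of -0.5 and -1.86.

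**Figure D2:**
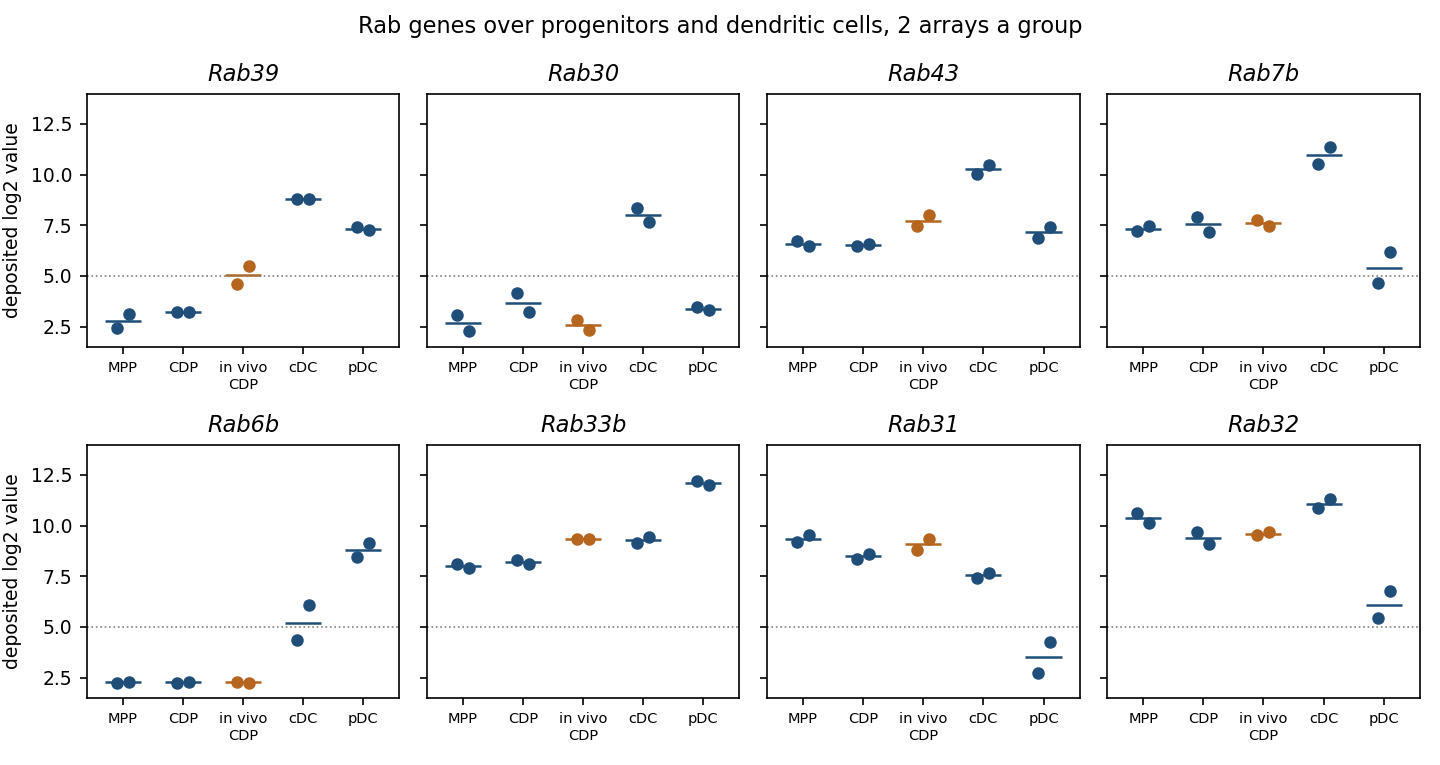
Deposited log2 values (vertical axes) of 8 Rab genes in MPP, CDP, in vivo CDP, cDC and pDC (horizontal axes), with 1 point per array, a bar at the mean of 2 and a dotted line at 5. Rab30, Rab43 and Rab7b are highest in cDC, Rab6b and Rab33b highest in pDC, and Rab31 and Rab32 lowest in pDC, with no overlap of cDC and pDC arrays in any panel.

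**Figure D3:**
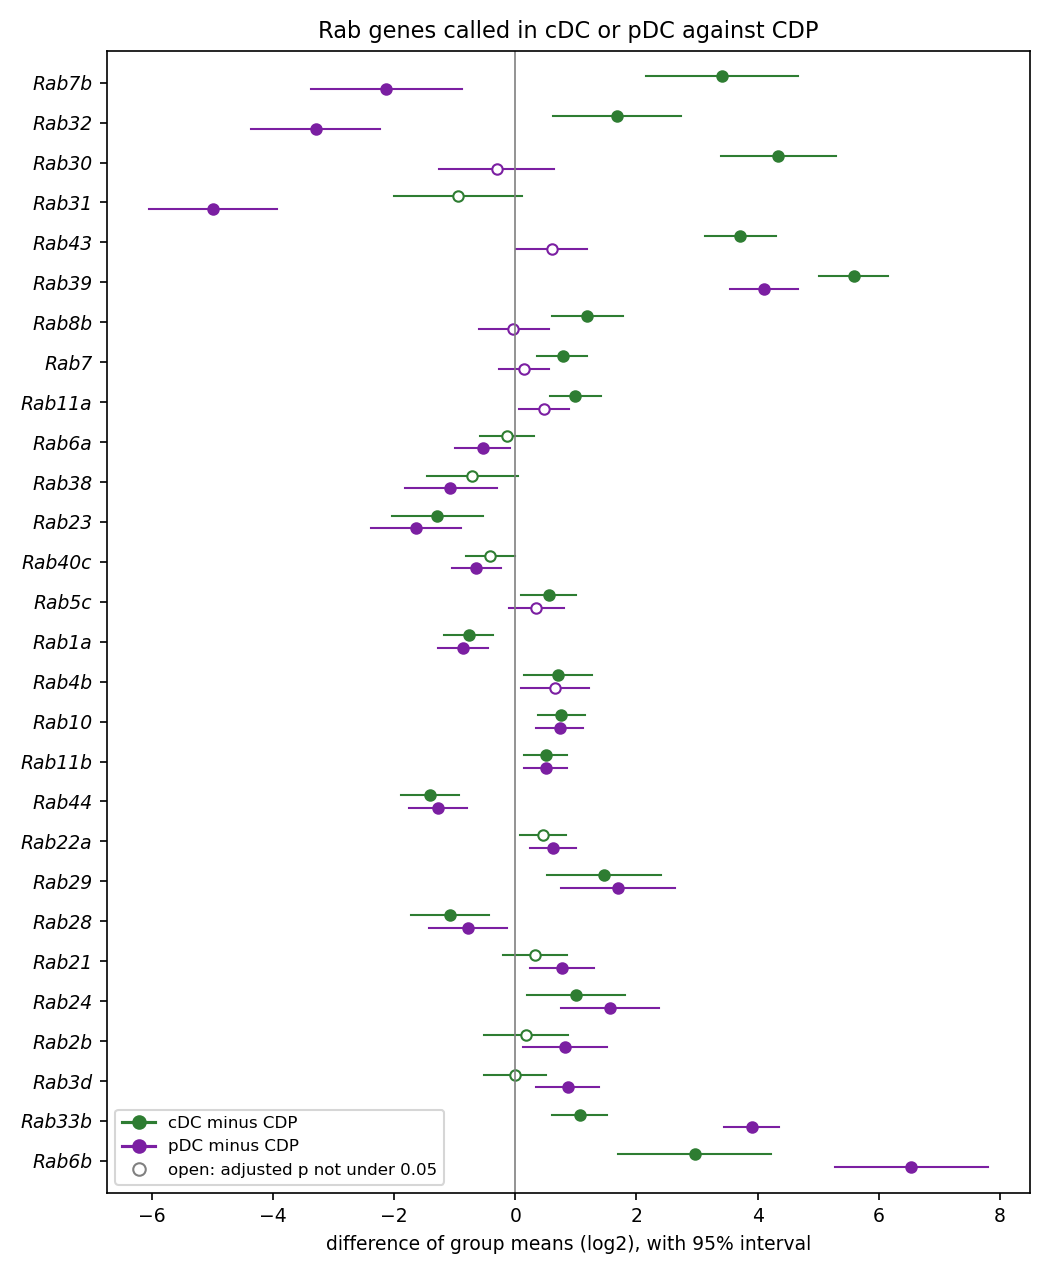
Differences of group means on the log2 scale (horizontal axis) with 95% intervals for the Rab genes called in cDC minus CDP (green) or pDC minus CDP (purple), ordered by the cDC minus pDC difference. Filled points have an adjusted p under 0.05. At the top Rab7b and Rab32 lie on opposite sides of 0 in cDC and pDC, and at the bottom Rab6b is 2.96 in cDC and 6.54 in pDC.

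Regulators and effectors of Rabs, from a list of 152 genes of which 143 were measured, were tested in the same fits. Of 108 tested, 16 were higher and 25 lower in cDC than in pDC, against 12.8% and 12.7% of all genes. In cDC against CDP 35 were higher and 16 lower (background 18.7% and 29.3%), so the share called either way lay near the background of 48%. The largest log2 increases in cDC were those of the TBC-domain genes Tbc1d8 (6.31), Tbc1d4 (4.83) and Tbc1d9 (at least 4.39, taking 5 as the limit) and of Lrrk2 (4.98), a kinase that phosphorylates several Rabs. In pDC against CDP 39 were higher and 19 lower (background 21.7% and 31.6%), led by Tbc1d8 (8.23), Rilpl1 (at least 5.37), which binds phosphorylated Rabs, and Evi5 (3.52), a GTPase activating protein for Rab11. Lrrk2 read 10.63 and 11.03 in cDC and 4.87 on both pDC arrays. Tbc1d9 and Lrrk2 were under 5 on both pDC arrays and were higher in cDC by at least 4.39 and at least 5.83 on the log2 scale. Rilpl1 and Evi5 differed by -4.75 and -3.08 in cDC against pDC. Kif20a, a mitotic kinesin that binds Rab6, and Osbpl1a, a Rab7 effector, were lower than in CDP in both subsets. In CDP against MPP 3 of 108 were higher and 10 lower (background 3.99% and 3.52%), with Ocrl, an inositol phosphatase that binds Rabs, at 6.96 and 6.94 in MPP and 3.03 and 3.31 in CDP. In vivo CDP had 39 of 111 higher and 23 lower than cultured CDP (background 27.6% and 19.5%), among them Tbc1d8 (3.33), Rin3 (2.68), an exchange factor for Rab5-type Rabs, and Unc13d (2.47), a Rab27 effector of granule release.

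After addition of TGF-β1 to cultured CDP, Rab genes were called mostly at 24 h, where the share called lay near that of all genes (19.6% against 19.3%). Of 51 members tested, 0 were called at 4 h by limma (background 0.648%, 0.569% higher and 0.079% lower), where 1 member, Rab7b, had an unadjusted p under 0.05. There was 1, lower, at 8 h (background 1.55%, 1.2% higher and 0.348% lower). At 12 h 3 were higher and 1 lower (background 5.38%, 3.7% higher and 1.68% lower), and 10 were called at 24 h (background 19.3%). At 24 h 7 were higher and 3 lower, against 10.8% and 8.43% of all genes. The median difference at 24 h was 0.08 over members and 0 over all genes. Over the whole course 6 members differed by the F-test (background 9.74%), namely Rab6b, Rab7b, Rab38, Rab30, Rab37 and Rab23.

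Rab38 read 5.99 and 6.09 before TGF-β1, 6.43 and 6.37 at 4 h, 6.69 and 7.06 at 8 h, 7.59 and 8.74 at 12 h, and 9.8 and 10.7 at 24 h. Every treated array lay above both untreated ones. The increase was 4.36-fold at 12 h (adjusted p = 0.0239) and 18.5-fold at 24 h (log2 difference 4.21, SE 0.4, adjusted p = 0.000455). The other Rab38 probe set gave 3.63 at 24 h.

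Rab6b read 3.92 and 3.47 untreated, 4.94 and 5.15 at 12 h and 7.02 and 6.57 at 24 h, at least 3.47-fold higher (log2 difference 3.1, SE 0.24, adjusted p = 0.000218). Its 2 other tested probe sets were also called, with smaller differences of 1.27 and 1.22. Rab30 read 4.68 and 4.65 untreated, 5.5 and 6.55 at 12 h and 7.07 and 7.44 at 24 h, at least 4.78-fold higher (log2 difference 2.59, SE 0.32, adjusted p = 0.00137). For both genes the 24 h arrays stood clear of all earlier times.

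Rab37 read 4.89 and 4.34 untreated and 6.63 and 7.57 at 24 h, at least 4.29-fold higher (adjusted p = 0.00282). Its other probe set, which is the brighter on these 10 arrays, gave 0.89 and was not called (adjusted p = 0.231). Smaller increases were called at 24 h for Rab5b (1.77-fold), Rab3d (1.53-fold) and Rab22a (1.45-fold). All 3 lost their calls without either untreated array and without 24 h replicate 1 (adjusted p of 0.0812 to 0.282). Rab3d and Rab22a also lost them without any 8 h or 12 h array or 24 h replicate 2 (0.0501 to 0.0994), without the 3 arrays of low 5′ signal (0.0527 and 0.0714) and with limma's trend and robust options (0.0535 and 0.0807). The Rab5b call was lost with the mean of its probe sets (0.0901), and its probe set that is brightest on these 10 arrays gave 0.05 (adjusted p = 0.929). Rab3d was lost with the mean of its probe sets (0.176), and Rab22a with each array centred on its median (0.0605).

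Rab7b fell, and was the member called at 8 h. It read 7.8 and 7.98 untreated, 7.11 on both 4 h arrays, 6.89 and 6.69 at 8 h, 6.24 and 5.9 at 12 h and 5.88 and 5.93 at 24 h. Each time lay below the untreated arrays, and the decrease was 2.15-fold at 8 h, 3.53-fold at 12 h and 3.97-fold at 24 h (log2 difference -1.99, SE 0.17, adjusted p = 0.000295). The 8 h call was lost without either untreated or either 8 h array (adjusted p of 0.112 to 0.261), while the later calls held under every alternative. Rab23 read 7.23 and 7.13 untreated and 5.87 and 6.07 at 24 h, 2.31-fold lower (adjusted p = 0.00352), a call lost with the mean of its probe sets (-0.65, adjusted p = 0.067). Rab31 was 1.66-fold lower at 24 h (9.11 and 9.09 against 9.88 and 9.78), a call lost without any of these 4 arrays (adjusted p of 0.108 to 0.182).

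At 12 h, Rab37 and Rab6b were called beside Rab38 and Rab7b. The Rab38 and Rab6b calls at 12 h were lost without either untreated array (adjusted p of 0.151 and 0.168, and 0.064 and 0.167), and those of Rab38 without 12 h replicate 2 (1.55, adjusted p = 0.102) and of Rab6b without either 12 h array (0.0857 and 0.113). With values under 5 raised to 5 the Rab6b difference at 12 h was 0.07 (adjusted p = 0.912) in place of 1.35, and with the mean of its probe sets 0.56 (0.094). Without either 8 h array Rab38 was at adjusted p of 0.0515 and 0.0516. The Rab37 call at 12 h was lost without each untreated, 8 h or 12 h array (adjusted p of 0.0885 to 0.294), and its probe set that is brightest on these arrays gave 0.2 (adjusted p = 0.905). At 12 h fewer members were called without either untreated array, 12 h replicate 2 or either 8 h array. At 24 h fewer were called without either untreated array or 24 h replicate 1, and more without either 4 h array. The share of all genes called was lower at both times without untreated replicate 1. It was higher at 24 h without 4 h replicate 1.

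Rab20 differed between replicates at the times with an array of low 5′ signal and, by -0.73, at 8 h, where neither array had low 5′ signal. The part of RNA quality in this was not tested. Its replicate 2 values were 6.06, 6.84, 7.62, 8.05 and 8.5 at 0, 4, 8, 12 and 24 h, and its replicate 1 values were 5.99, 5.73, 6.89, 6.34 and 6.82. Over all arrays the 24 h difference of 1.63 was not called (adjusted p = 0.154), and without the 3 arrays of low 5′ signal it was 2.47 (adjusted p = 0.00104). Rab27a, at 10.01 and 9.88 untreated and 9.54 and 8.88 at 24 h, was not called (-0.74, adjusted p = 0.121). Without those 3 arrays its difference was -1.07 (adjusted p = 0.0047), and its other tested probe sets were lower by 2.15 and 1.67 on all arrays (adjusted p of 0.0299 and 0.0279 over all probe sets tested). Rab44, at 7.14 and 7.78 untreated and 6.2 and 6.49 at 24 h, had a difference of -1.11 (adjusted p = 0.0559). It passed without 4 h replicate 1 or 4 h replicate 2. Averaging the probe sets of every gene gave an adjusted p of 0.0493, but Rab44 has only 1 probe set, so its own values were unchanged. With the replicate number as a block Rab44 passed as well (0.0043). Rab32 read 9.97 and 9.23 untreated and 8.8 and 8.74 at 24 h and was not called (-0.82, adjusted p = 0.212), but passed with that block (0.0203). Rab39 stayed under 5 on all 10 arrays. Neither Rab5a, Rab7, Rab11a nor Rab43 was called at any of the 4 times in this fit.

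**Figure D4:**
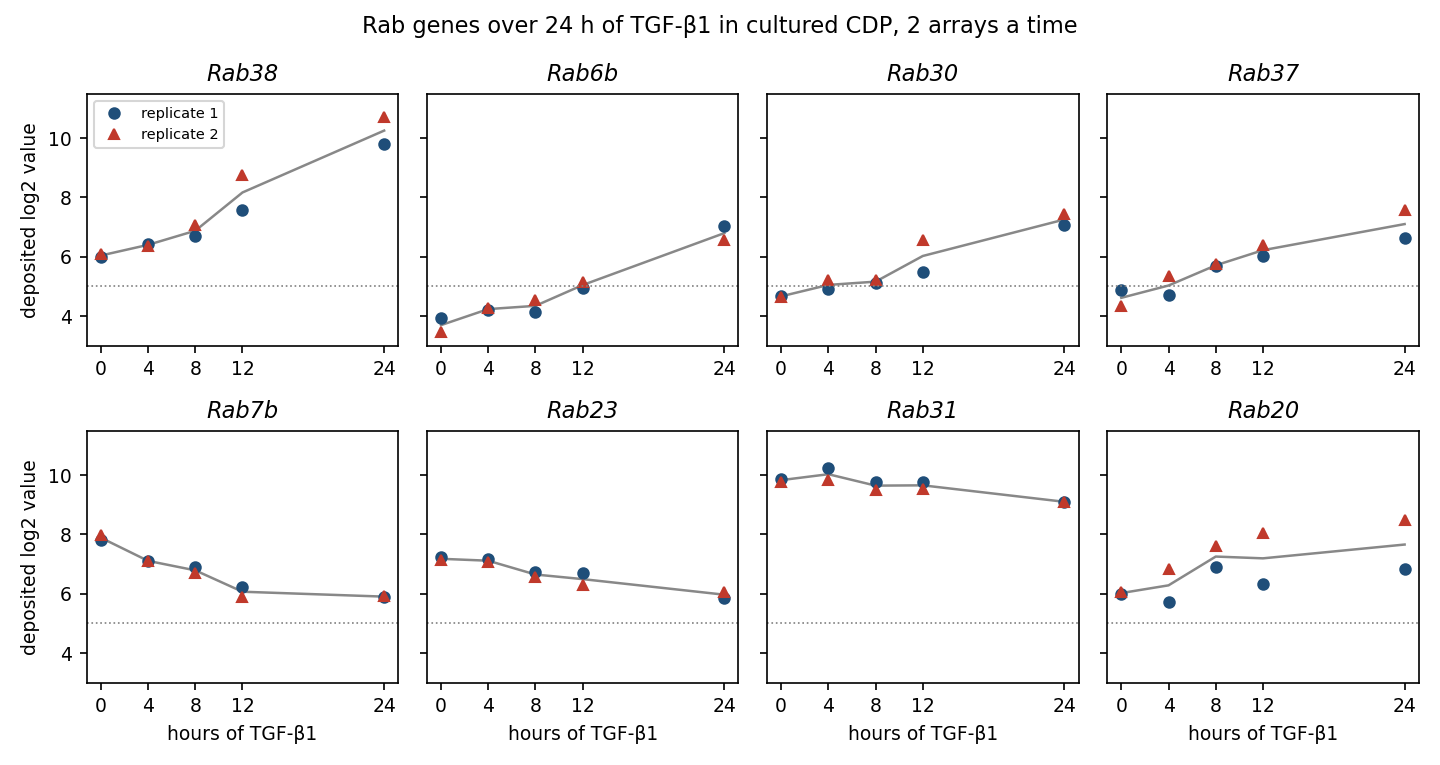
Deposited log2 values (vertical axes) against hours of TGF-β1 (horizontal axes) for 8 Rab genes in cultured CDP. Circles are replicate 1, triangles replicate 2, the line joins the means of 2 arrays, and the dotted line marks 5. Rab38, Rab6b, Rab30 and Rab37 are higher at 24 h, and Rab7b is lower from 4 h on. The Rab20 replicates lie apart at 4, 8, 12 and 24 h, and replicate 1 has low 5′ signal at 4, 12 and 24 h.

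Of the Rab regulators and effectors, 27 of 131 tested were higher and 5 lower at 24 h, against 10.8% and 8.43% of all genes, with a median difference of 0.35 where that of all genes was 0. Myrip, which links Rab27a to myosin, read 5.44 and 5.2 untreated and 10.54 and 11.06 at 24 h (log2 difference 5.48, SE 0.24, adjusted p = 3.72e-05). Rilpl1 rose already at 4 h, from 5.23 and 5.58 to 9.3 and 8.48, and read 11.02 and 10.43 at 24 h (log2 difference 5.32, SE 0.32, adjusted p = 6.39e-05). Hps4, a subunit of the exchange factor for Rab32 and Rab38, read 8.48 and 8.47 untreated, 9.71 and 9.78 at 4 h and 10.27 and 10.01 at 24 h, with no overlap at any time. The Hps4 increase was called at 4 h (1.27, adjusted p = 0.013) and at each later time. The Rab11 effector Rab11fip4 rose by 2.91 at 24 h. Lower at 24 h were Rabggtb, a subunit of the Rab prenylating enzyme (-1.25), Rabif, a Rab chaperone (-1.03), Rilpl2, Denn2b and Tbc1d2b.

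The TGF-β1 arrays and the arrays of differentiated cells share no sample, so calls in both can be set side by side. Rab30 and Rab6b were called higher in cDC than in CDP and at 24 h of TGF-β1, which is 2 of the 15 members higher in cDC and 2 of the 6 higher at 24 h among members in both fits. Over all genes in both fits, 33.2% of those higher in cDC were higher at 24 h, and 47.3% of those higher at 24 h were higher in cDC. Rab22a, Rab3d and Rab6b were called higher in pDC than in CDP and at 24 h. That is 3 of the 10 members higher in pDC and 3 of the 6 higher at 24 h, where the shares over all genes were 29.4% and 49%. Rab38, under 5 on the CDP and pDC arrays, was called lower in pDC and higher at 24 h. It passed the filter of that fit through its MPP arrays alone, and its pDC call was lost with values under 5 raised to 5. The decrease in pDC is therefore not read as a change of level. Over all genes 116 were called lower in pDC and higher at 24 h, 4.15% of those lower in pDC. Rab7b was higher in cDC and lower at 24 h. Over all genes 43 did so, 2.67% of those higher in cDC and 4.4% of those lower at 24 h. Rab23, Rab31 and Rab7b were all lower in pDC than in CDP and lower at 24 h, where 73.5% of genes lower at 24 h were also lower in pDC. Rab38 and Rab3d were lower in CDP than in MPP and higher at 24 h, 2 of the 4 members lower in CDP. Over all genes, 18.3% of those lower in CDP were higher at 24 h, and 4.51% of those higher at 24 h were lower in CDP. In cDC Rab38 stayed under 5, at 3.31 and 3.12.

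Markers of cDC moved with the 24 h changes: all 9 tested, of 10 measured, were higher, and the log2 of their summed linear signal went from 11.05 to 11.47 in untreated CDP to 14.06 to 14.35 at 24 h. The sum of 3 eosinophil markers went from 7.58 to 8.63 untreated to 11.58 to 11.85 at 24 h. Of these, Siglecf alone was above 5 on both arrays, at 8.51 and 7.33 untreated and 11.56 and 11.83 at 24 h, and was called higher. The monocyte and macrophage sum was 13.45 to 13.75 untreated and 12.49 to 12.5 at 24 h, with 2 of 6 markers called lower. The granulocyte sum was 13.57 to 13.81 untreated and 11.56 to 13.02 at 24 h, with 2 of 9 tested called lower, and the mast cell and basophil sum 7.62 to 8.09 and 7.38 to 7.43, with 0 of 3 tested called by limma. The part of a changed mixture of cells in the Rab changes was not tested.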

How the data were processed

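RNA of 20 samples was hybridised to Affymetrix mouse expression arrays. The deposited values are log2 signals made by the authors with GCRMA, per the submitters' processing notes; no version was given. Values were used as deposited. Of 45101 probe sets, 34945 had 1 gene symbol in the platform annotation, 932 had several and 64 were controls. Genes above 5 on at least 2 arrays of a fit were tested with limma 3.58.1 in R 4.3.3 (lmFit, eBayes, two-sided, Benjamini-Hochberg over all genes tested, threshold 0.05), in separate fits of the 8 MPP, CDP, cDC and pDC arrays, of these with in vivo CDP, and of the 10 TGF-β1 arrays. Folds are "at least" against 5 where the lower group had no array reaching 5. The number of arrays limits the precision. The fits were tested on simulated data. Members, role groups, regulator and marker lists, and the alternatives were chosen with earlier results of these data known. Named are the 10 called members with the largest changes per direction (4 for in vivo CDP and for 4, 8 and 12 h), others called, a fixed set (Rab5a, Rab7, Rab11a, Rab20, Rab27a, Rab27b, Rab32, Rab38, Rab39, Rab43, Rab44) and up to 3 regulators per direction. Alternatives covered filters, scaling, raised low values, variance model, probe set choice, replicate block and left-out arrays.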

Additional observations from a re-analysis of the deposited data

Results flagged for a closer look

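Rab7b and Rab32 stand out because cDC and pDC moved in opposite directions from the same CDP arrays, each called, with the difference between the subsets itself called. The difference between the subsets held under every alternative. The decrease of Rab7b in pDC and the increase of Rab32 in cDC did not. Both calls were lost with no filter on low values and with some single arrays left out. Rab7b was higher in cDC than in pDC by 5.54 on the log2 scale (adjusted p = 0.000474 by limma), the 2 cDC arrays lying above and the 2 pDC arrays below both CDP arrays. Rab32 was higher in cDC than in pDC by 4.98 (adjusted p = 0.000384), with the same order of arrays.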

How the results depend on the processing

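Of 79 called results of named members, 35 stayed called under every alternative that gave a value, 44 lost the call under at least 1, and 1 changed sign: Rab27a in vivo was -0.03 with the mean of its probe sets. With no filter, 12 of 59 members were called in pDC against CDP, where 20.7% of all genes were called. The calls lost were those of Rab29, Rab24, Rab3d, Rab2b, Rab21, Rab6a, Rab28, Rab38 and Rab7b. In cDC against CDP no filter kept 13 of the 20 calls. Among named members it ended those of Rab32, Rab29, Rab24, Rab28 and Rab23, and in vivo those of Rab28 and Rab30. At 12 h 2 were called with values under 5 raised to 5. Without the 3 arrays of low 5′ signal, 5 were called at 8 h and 9 at 12 h. With 1 array left out, the calls ranged from 1 to 4 in CDP against MPP, 12 to 19 in cDC against CDP, 12 to 20 in pDC against CDP, 7 to 14 in cDC against pDC, 20 to 26 over these 4 groups, 12 to 21 in vivo, 0 to 4 at 4 h, 0 to 1 at 8 h, 1 to 5 at 12 h, 6 to 16 at 24 h and 3 to 10 over the time course. The causes were not tested, except that members above 5 in 1 group fall under the filter when an array of it is left out. A group left with 1 array is assumed to vary like the others.

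Replicate numbers are shared numbers that the labels do not tie to a culture or day. With the number as a replicate block, 7 members were called at 12 h, 20 at 24 h and 10 over the time course. All 10 members called at 24 h without the block were among the 20. The others were Rab20, Rab2b, Rab8b, Rab9 and Rab40c, higher, and Rab44, Rab32, Rab27a, Rab19 and Rab2a, lower, and those added at 12 h were Rab30, Rab23 and Rab32. Over all genes the share called rose to 30.1% at 24 h and 12.1% at 12 h. That over the time course is not given here, so the count of 10 is not read as particular to Rab members. Among the other groups the block ended the Rab6a call in pDC and no other call of a member. It added Rab30, under 5 on the arrays of both groups, as higher in CDP than in MPP (1.01, adjusted p = 0.0475 by limma). In cDC against CDP it added Rab19 and Rab8a, higher, and Rab27a, lower. Rab4b was added as higher in pDC than in CDP, and Rab19 as higher in cDC than in pDC. Deviations of same-numbered arrays correlated at -0.06 to 0.58 among the 4 groups and 0.27 to 0.85 in the time course. The highest of the time course, 0.67 to 0.85, were the pairs among 4, 12 and 24 h, where replicate 1 had low 5′ signal. The other pairs were at 0.27 to 0.54. The part of RNA quality in the block result was not tested. With 2 replicates, signals under 5 limit Rab34, Rab23, Rab44 and Rab38 in dendritic cells.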

Other observations

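Some members differed widely between replicates on the TGF-β1 arrays with low 5′ signal. Replicate 1 minus replicate 2 was -2.76 for Rab4b at 4 h, -1.89 for Rab24 at 12 h and -1.94 for Rab24 at 24 h. Rab5c read 8.42 and 10.61 at 4 h and 10.63 and 10.67 at 8 h. Rab8a read 8.51 and 9.8 at 4 h and 8.72 and 9.93 at 24 h. The replicate SD over the 59 members was 0.49 at 4 h, 0.37 at 12 h and 0.38 at 24 h, against 0.16 at 0 h and 0.2 at 8 h, and over all genes it was 0.44, 0.28 and 0.33 against 0.15 and 0.19.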
